A study of Homo sapiens with 9 samples.

Results

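The genes described here are 7 chemokines, CXCL8, CXCL1, CXCL2, CXCL3, CCL2, CCL20 and CXCL12, and CXCR4, the receptor of CXCL12, in SK-N-AS cells, an established human neuroblastoma line. All probe sets that name 1 of these 8 genes were taken, which gave 14 of the 54675 probe sets on the array. Per the labels, the RE-EX1 construct carries full-length NRSF and the HZ4 construct a truncated form, other cells stayed untreated, and RNA was read at 0, 24 and 48 h. The cells of the full-length series are also called RE-EX1 cells and those of the truncated series HZ4 cells. Each of the 9 groups holds 1 Affymetrix array, so 3 arrays share each time and 3 share each series. The series text speaks of triplicates and batches, but the labels give neither a replicate nor a batch, and what promoter drives the constructs is not stated there. All 3 series are cells of 1 line in the same medium, and the untreated cells are not labelled as carrying an empty construct.

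Chemokines are small secreted proteins that steer migrating cells through receptors coupled to G proteins. CXCL8 and the closely related CXCL1, CXCL2 and CXCL3 attract neutrophils through CXCR1 and CXCR2, CCL2 attracts monocytes through CCR2, and CCL20 attracts lymphocytes and dendritic cells through CCR6. These ligands are classical targets of the transcription factor NF-kB, and several of their mRNAs are short-lived. CXCL12 is made more steadily and acts through CXCR4, a receptor much studied in the spread of neuroblastoma to bone marrow, while ACKR3 takes CXCL12 up. NRSF, encoded by REST, represses transcription from RE1 elements near neuronal genes.

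Of the 14 probe sets, 12 passed the filter on dim probe sets, and these 12 cover all 8 genes. The 2 that did not pass are both for CXCL2, at signals of 1.54 to 47.8 and 1.71 to 23.5. Probe sets whose identifier ends in _x_at may also bind other transcripts, and 3 of the 14 are so marked: the brighter of CXCL8, the bright one of CXCL2 and the dimmest of CXCR4. Signal is the scaled brightness of a probe set, and levels of different probe sets cannot be set against each other. A floor of 8.27 was applied before logarithms, since 21.9% to 26.9% of the values of an array lay at or below it, and a fold against an array at the floor is a lower bound. The truncated 24 h array stood apart: its median correlation with the other arrays was 0.885, against 0.898 to 0.913 for the rest, and its median signal was the highest at 42.7, so the calls that were lost without it are named beside the results. ACTB control probe sets gave 3'/5' ratios between 2.25 and 4.19. On its brightest probe set, REST had signals of 171.1, 268.3 and 273.5 at 0, 24 and 48 h in RE-EX1 cells, 162, 323.1 and 341.6 in HZ4 cells and 177.2, 444.7 and 260.3 in untreated cells. On that probe set REST was thus lower in both construct series than in untreated cells at 24 h. At 48 h the truncated array was above the untreated one, and the full-length array, at 273.5, was close to it, at 260.3. The other 2 REST probe sets were dim, at 3.95 to 50.4 in RE-EX1 cells, 22.6 to 122 in HZ4 cells and 6.63 to 47.3 in untreated cells. Where the constructs lie relative to these probe sets was not tested. In bulk RNA, fewer cells of a type and less RNA per cell cannot be told apart.

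CXCL8, CXCL1, CXCL3 and CXCL2 lie within 358.6 kb of chromosome 4 (GRCh38.p14). CXCL8 is at chr4:73740569-73743716, CXCL1 at chr4:73869393-73871308, CXCL3 at chr4:74036589-74038689 and CXCL2 at chr4:74097040-74099195. CCL20 is at chr2:227813842-227817556, CXCR4 at chr2:136114349-136118149, CCL2 at chr17:34255285-34257203 and CXCL12 at chr10:44370165-44385097. The 140 bases before the start site of 5 inducible ligands are shown because these are the genes whose time courses are compared next, and 4 of them share a short motif. They are RefSeq sequences of GRCh38.p14, written 5' to 3' on the gene's own strand, which is the plus strand for CXCL8, CXCL1 and CCL20 and the minus strand for CXCL2 and CXCL3. The windows are chr4:73740429-73740568 for CXCL8, chr4:73869253-73869392 for CXCL1, chr4:74099196-74099335 for CXCL2, chr4:74038690-74038829 for CXCL3 and chr2:227813702-227813841 for CCL20. Capitals mark matches on either strand to the NF-kB site GGAATTTCC, to the NF-kB consensus GGGRNNYYCC, or to the AP-1 motif TGANTCA. R is A or G, Y is C or T, and N is any base.
CXCL8: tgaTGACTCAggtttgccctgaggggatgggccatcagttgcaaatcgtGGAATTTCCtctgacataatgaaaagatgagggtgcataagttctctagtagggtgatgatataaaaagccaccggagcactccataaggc
CXCL1: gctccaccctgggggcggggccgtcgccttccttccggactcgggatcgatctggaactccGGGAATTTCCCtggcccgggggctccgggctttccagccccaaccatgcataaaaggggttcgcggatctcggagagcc
CXCL2: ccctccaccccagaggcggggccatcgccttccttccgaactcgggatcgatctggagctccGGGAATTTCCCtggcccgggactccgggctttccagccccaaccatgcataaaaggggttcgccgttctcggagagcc
CXCL3: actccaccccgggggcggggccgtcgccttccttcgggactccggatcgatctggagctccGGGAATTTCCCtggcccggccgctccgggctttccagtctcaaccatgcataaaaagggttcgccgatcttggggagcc
CCL20: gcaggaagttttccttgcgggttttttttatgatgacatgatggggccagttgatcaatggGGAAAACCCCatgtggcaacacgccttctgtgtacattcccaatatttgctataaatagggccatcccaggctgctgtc
The letters GGAATTTCC stood 91 bases before the start of CXCL8, 78 before those of CXCL1 and CXCL3, and 77 before that of CXCL2. Of 35116 promoter windows of 250 bases, 0.413% held them on either strand. The looser NF-kB consensus, which overlaps that site in CXCL1, CXCL2 and CXCL3, was also matched 79 bases before the start of CCL20, there on the strand opposite to the one printed. It was held by 9.96% of windows. TGANTCA was found 137 bases before the start of CXCL8 and in 6.57% of windows. Over these 140 bases CXCL1 was 91.5% identical to CXCL2 and 90.7% identical to CXCL3, while CXCL8 was 44.8% to 48.4% identical to the other 4. Windows were found for 7 of the 8 genes, and none held TTCAGCACC or GGACAGCG, 2 pieces of the RE1 element found in 0.288% and 1.26% of all windows. A match is a stretch of letters, and binding was not measured.

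CXCL8, a neutrophil attractant, rose at 24 h and was still raised at 48 h, and its 24 h estimates were the largest among the 12 probe sets tested. On the brighter probe set, 202859_x_at, its signal at 0, 24 and 48 h was 326, 3045 and 1142 in RE-EX1 cells, 174, 3771 and 1339 in HZ4 cells and 318, 5031 and 2176 in untreated cells. Each 0 h array was below each 48 h array, and each 48 h array was below each 24 h array. The 24 h level was 9.34-fold, 21.7-fold and 15.8-fold the 0 h level in RE-EX1, HZ4 and untreated cells, so untreated cells rose too. With the 3 series as repeats of a time, limma gave a log2 change of 3.88 ± 0.19 (SE; adjusted p = 8.8e-10) for 24 h over 0 h, or 14.7-fold, and 2.51 ± 0.19 (adjusted p = 7.8e-07) for 48 h over 0 h. From 24 to 48 h it fell by 1.37 ± 0.19 on the log2 scale (SE, limma adjusted p = 0.00060). That fall was kept in 11 of 13 other settings, and was lost with no filter on dim probe sets and without the variance trend. The call for 48 h over 0 h was kept in 12 of 13 and lost without the variance trend. Here and below, SE rest on variances that limma draws toward a trend over all probe sets.

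The second CXCL8 probe set, 211506_s_at, is not marked for cross-binding. It read 20.1, 263 and 305 at 0, 24 and 48 h in RE-EX1 cells, 51.1, 993 and 320 in HZ4 cells and 58.9, 1411 and 372 in untreated cells. All 0 h arrays were again below all later ones, but the full-length series alone did not drop after 24 h. The limma change was 4.19 ± 0.31 (SE; adjusted p = 8.0e-08) at 24 h and 3.08 ± 0.31 (adjusted p = 1.1e-05) at 48 h over 0 h. From 24 to 48 h the estimate was −1.12 ± 0.31 (SE; limma adjusted p = 0.059), and that fall was called in 2 of 12 other settings. The call for 48 h over 0 h was kept in 11 of 12 and lost without the variance trend. The log2 signals of the 2 probe sets correlated over the 9 arrays at r = 0.92, a description in which the points share arrays and the time course.

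CCL20, the ligand of CCR6, was dim at 0 h and also rose. Its signal at 0, 24 and 48 h was 8.15, 76.6 and 57.4 in RE-EX1 cells, 9.43, 93.9 and 46.0 in HZ4 cells and 26.3, 203.7 and 40.7 in untreated cells. The 24 h arrays were all above the 48 h arrays, which were all above the 0 h arrays. The 24 h level was at least 9.26-fold the 0 h level in the full-length series, where the 0 h array was at the floor, 9.96-fold in the truncated and 7.74-fold in the untreated series. The limma change was 3.16 ± 0.55 (SE; adjusted p = 0.00078) at 24 h and 1.90 ± 0.55 (adjusted p = 0.044) at 48 h over 0 h. The 48 h call was kept in only 4 of 13 other settings, with estimates of 1.00 to 2.54, and was lost without the truncated 24 h array (1.90, adjusted p = 0.053).

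CXCL1, another neutrophil attractant, had its highest arrays at 24 h, without passing the test. It read 41.1, 61.7 and 19.2 at 0, 24 and 48 h in RE-EX1 cells, 7.26, 57.5 and 30.0 in HZ4 cells and 24.3, 91.0 and 38.4 in untreated cells. Each 24 h array lay above all 0 h and all 48 h arrays, while the 0 and 48 h arrays overlapped. The limma estimate for 24 h over 0 h was 1.76 ± 0.63 (SE; adjusted p = 0.072), and for 48 h over 0 h it was 0.47 ± 0.63 (adjusted p = 0.74). The truncated 0 h array was at the floor, and with a floor at the 40th percentile of all values the 24 h estimate was 1.28 (limma adjusted p = 0.040). That was the only 1 of 13 other settings in which CXCL1 was called at 24 h over 0 h. The estimates in these settings were 1.17 to 2.35.

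**Figure D1:**
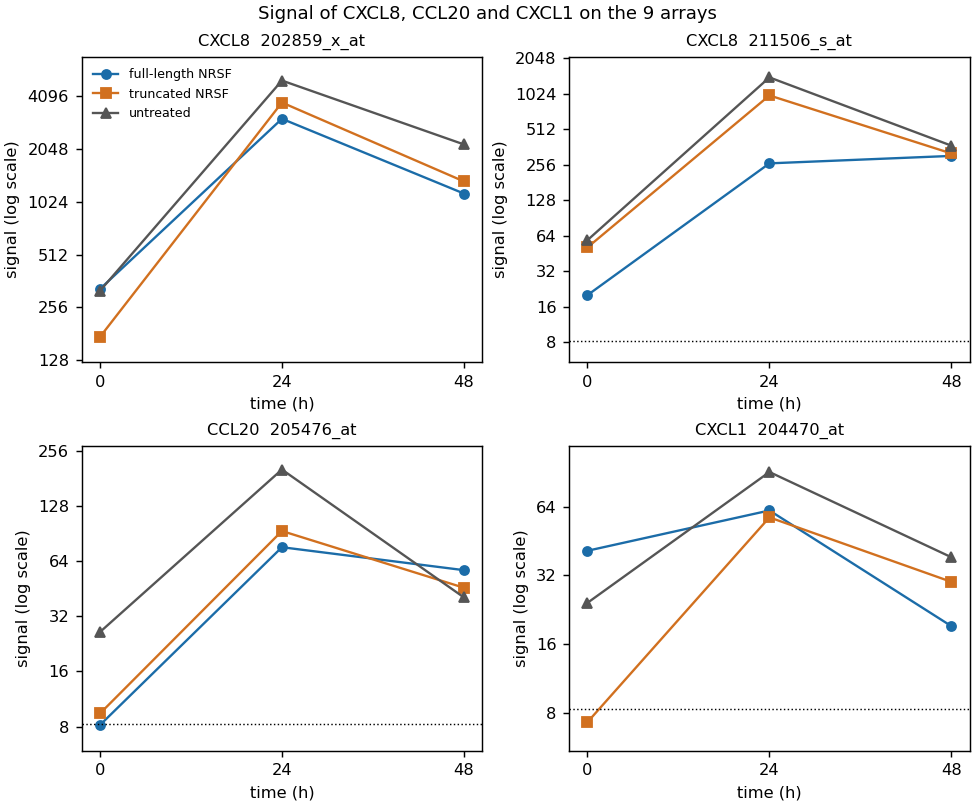
Signal (log scale) against time (h) for both CXCL8 probe sets, CCL20 and CXCL1, with 1 point per array, lines joining the arrays of a series, and a dotted line at the floor of 8.27 where values come near it. In each series CXCL8 and CCL20 were higher at 24 h than at 0 h, and the untreated series had the highest 24 h point in every panel.

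CXCL2 and CXCL3, close relatives of CXCL1, did not pass the test at any time. On 209774_x_at, CXCL2 read 507, 406 and 267 at 0, 24 and 48 h in RE-EX1 cells, 639, 376 and 255 in HZ4 cells and 370, 1044 and 468 in untreated cells. The level was lower at both later times than at 0 h in both construct series, and higher at both later times in the untreated series, whose 24 h level was 2.83-fold its 0 h level. The limma estimates were 0.14 ± 0.29 (SE; adjusted p = 0.82) at 24 h and −0.64 ± 0.29 (adjusted p = 0.22) at 48 h over 0 h. Without the untreated series the 48 h change was −1.12 (limma adjusted p = 0.011). That was the only 1 of 13 other settings in which it was called, with estimates of −1.12 to −0.29. This probe set may cross-bind, and its correlation over the 9 arrays with the 2 dim CXCL2 probe sets was 0.04 and 0.60.

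CXCL3 was dim, at 31.7, 20.0 and 20.6 at 0, 24 and 48 h in RE-EX1 cells, 22.3, 16.8 and 6.07 in HZ4 cells and 45.8, 47.3 and 51.0 in untreated cells. The 3 untreated arrays were above all 6 construct arrays, including those at 0 h. The limma estimates for time were −0.34 ± 0.67 (SE; adjusted p = 0.81) at 24 h and −0.63 ± 0.67 (adjusted p = 0.66) at 48 h over 0 h. Of the 4 genes with the GGAATTTCC letters, CXCL8 passed the test at 24 h over 0 h, and CXCL1, CXCL2 and CXCL3 did not.

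CCL2, a monocyte attractant, and CXCL12 fell at 24 h over 0 h. CCL2 was bright throughout, at 5068, 2298 and 5940 at 0, 24 and 48 h in RE-EX1 cells, 7574, 2319 and 4642 in HZ4 cells and 4499, 4186 and 4983 in untreated cells. All 24 h arrays were below all 0 h and all 48 h arrays, though the untreated 24 h array was close to its own 0 h array, with a log2 difference of −0.10. In limma, CCL2 fell by 0.98 ± 0.22 at 24 h over 0 h on the log2 scale (SE; adjusted p = 0.0056) and rose by 0.87 ± 0.22 from 24 to 48 h (adjusted p = 0.039). The later rise was kept in 7 of 14 other settings, with estimates of 0.63 to 1.19, and was lost without the truncated 24 h array (0.66, limma adjusted p = 0.26). The 24 h call was kept in 9 of 14 other settings. The 24 h change was −0.62 (limma adjusted p = 0.13) without the truncated series and −0.91 (limma adjusted p = 0.059) without the full-length series. It was −0.77 (limma adjusted p = 0.065) without the truncated 24 h array and −0.98 (limma adjusted p = 0.18) with no filter on dim probe sets. Without the untreated series it was −1.42 (limma adjusted p = 0.00027).

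CXCL12, the ligand of CXCR4, was read by 2 probe sets that correlated at r = 0.83 over the 9 arrays. On 203666_at it read 333, 161 and 191 at 0, 24 and 48 h in RE-EX1 cells, 541, 167 and 243 in HZ4 cells and 203, 195 and 249 in untreated cells. On 209687_at it read 323, 178 and 201 in RE-EX1 cells, 342, 129 and 281 in HZ4 cells and 217, 159 and 292 in untreated cells. On both probe sets the 24 h arrays were all below the 0 h arrays, and both construct series had a higher 0 h array than the untreated series. On 203666_at the untreated 24 h array, at 195, was close to its own 0 h array, at 203. CXCL12 fell at 24 h over 0 h on both in limma, by 0.93 ± 0.27 (SE; adjusted p = 0.026) and by 0.90 ± 0.25 (adjusted p = 0.019) on the log2 scale. The estimates for 48 h over 0 h were −0.55 (adjusted p = 0.25) and −0.18 (adjusted p = 0.75). Both 24 h calls were lost without the truncated 24 h array, with changes of −0.70 (adjusted p = 0.17) and −0.68 (adjusted p = 0.14), and without the truncated series, with −0.55 (adjusted p = 0.32) and −0.65 (adjusted p = 0.20). They were also lost without the full-length series, with −0.87 (limma adjusted p = 0.16) and −0.93 (limma adjusted p = 0.082). With no filter on dim probe sets they were lost too (limma adjusted p = 0.21 and 0.14). The 24 h call was kept in 9 of 14 other settings on 203666_at and in 7 of 12 on 209687_at.

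**Figure D2:**
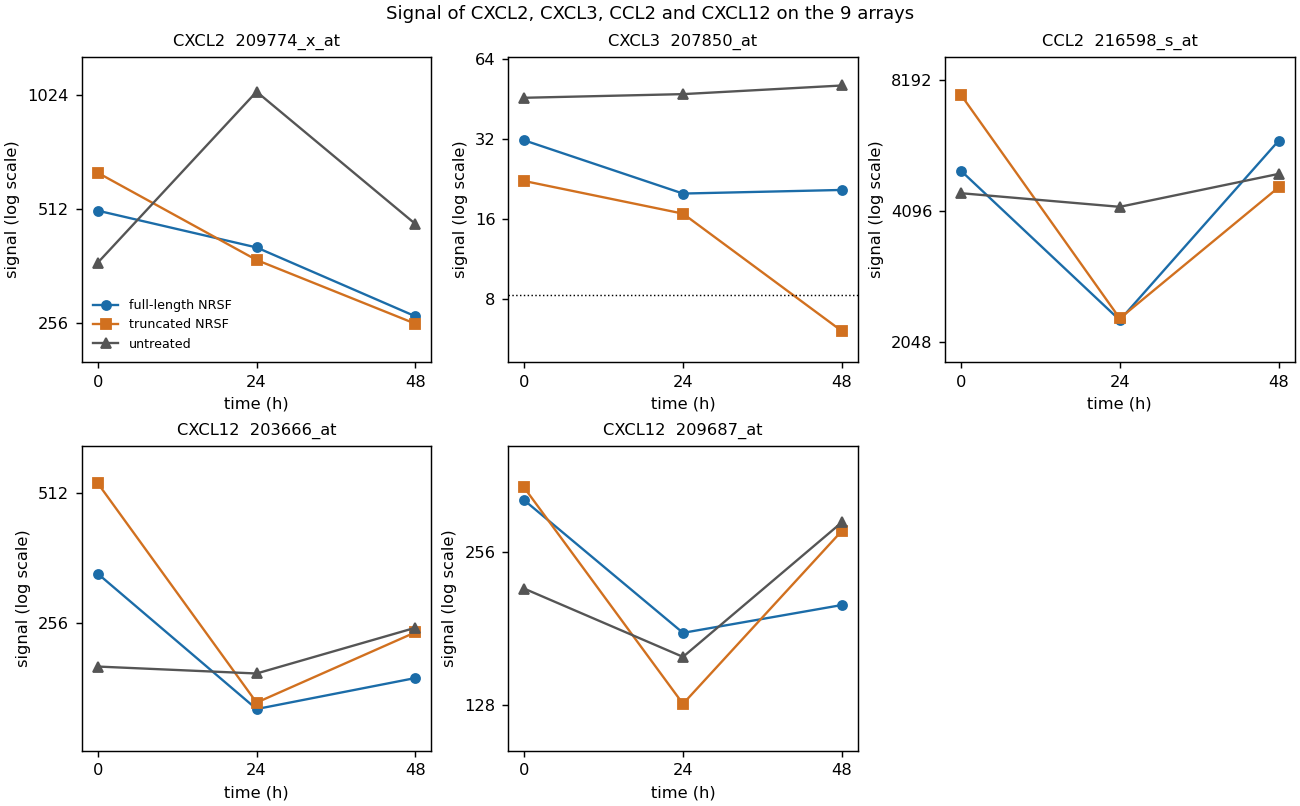
Signal (log scale) against time (h) for CXCL2, CXCL3, CCL2 and both CXCL12 probe sets, with 1 point per array, lines joining the arrays of a series, and a dotted line at the floor where values come near it. CCL2 read 2298 and 2319 on the full-length and truncated 24 h arrays, against 4186 on the untreated one, and CXCL2 read 406 and 376, against 1044.

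CXCR4, the only receptor among these genes, was read by 3 dim probe sets that did not track each other. Their pairwise correlations over the 9 arrays were 0.09, 0.48 and 0.41. On the brightest, 211919_s_at, CXCR4 read 69.4, 53.0 and 76.4 at 0, 24 and 48 h in RE-EX1 cells, 48.7, 66.8 and 130.3 in HZ4 cells and 7.51, 69.8 and 68.7 in untreated cells. The untreated 0 h array, at the floor, was alone in being low. On 217028_at it read 2.55, 51.9 and 103.9 in RE-EX1 cells, 26.9, 37.1 and 97.0 in HZ4 cells and 47.4, 23.1 and 88.9 in untreated cells. Here the full-length 0 h array was the one at the floor, and the untreated 24 h level was lower than that at 0 h, the opposite of 211919_s_at. On 209201_x_at it read 29.9, 19.4 and 80.0 in RE-EX1 cells, 4.0, 1.53 and 52.9 in HZ4 cells and 13.5, 33.9 and 48.0 in untreated cells.

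On all 3 probe sets the 48 h array of each series was above its own 0 h array. For 48 h over 0 h the limma change was 1.54 ± 0.56 (SE; adjusted p = 0.11) on 211919_s_at, 2.14 ± 0.61 (adjusted p = 0.043) on 217028_at and 1.98 ± 0.71 (adjusted p = 0.11) on 209201_x_at, so 1 of 3 rose by the test. The call on 217028_at was kept in 7 of 11 other settings and lost without the full-length series (1.38, limma adjusted p = 0.31) and without the truncated series (2.28, limma adjusted p = 0.14). It was also lost with no filter on dim probe sets (2.14, limma adjusted p = 0.27) and without the variance trend. With the mean of all CXCR4 probe sets as 1 value, the change was 1.88 (adjusted p = 0.016). At 24 h over 0 h none passed, with estimates of 1.05 ± 0.56 (SE; adjusted p = 0.25), 0.69 ± 0.61 (adjusted p = 0.53) and 0.24 ± 0.71 (adjusted p = 0.88).

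**Figure D3:**
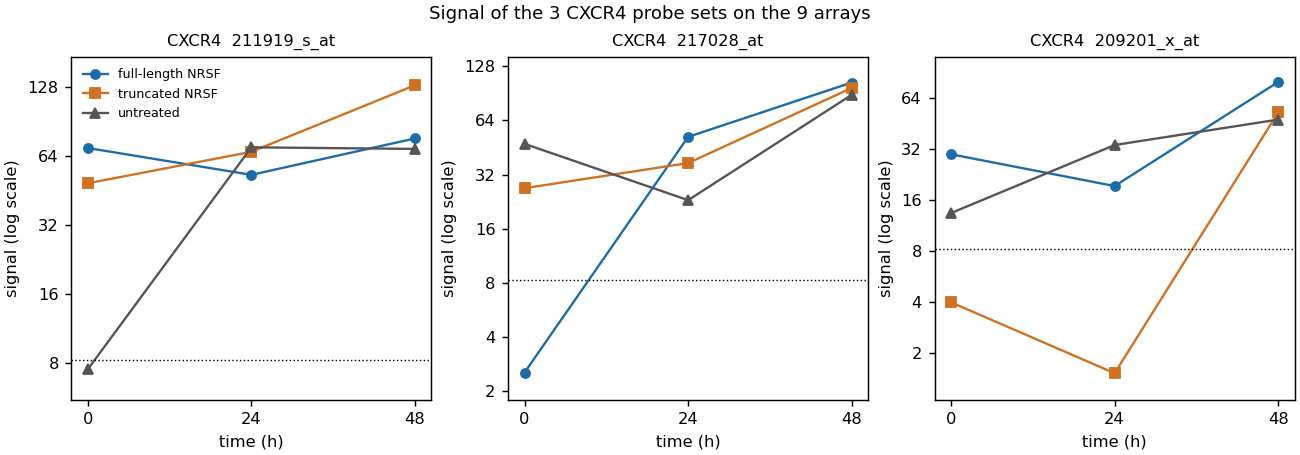
Signal (log scale) of the 3 CXCR4 probe sets against time (h), with 1 point per array, lines joining the arrays of a series and a dotted line at the floor of 8.27. The arrays below the floor differ between probe sets, and at 48 h all 9 points lie between 48.0 and 130.3.

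The genes were chosen with earlier results of these data known, so the counts that follow are descriptions and not tests against the shares of all. Probe sets of the same gene are also counted separately. Counted over the 12 probe sets, limma called 3 higher at 24 h than at 0 h, both of CXCL8 and that of CCL20, against 6.62% of all 26480 probe sets tested. It called 3 lower, that of CCL2 and both of CXCL12, against 6.47% of all. It called 4 higher at 48 h over 0 h, both of CXCL8, that of CCL20 and 1 of CXCR4, against 3.26% of all, and 0 lower, against 2.96% of all. Unadjusted p was under 0.05 for 7 of the 12 at each of these times, either way, against 25.8% of all at 24 h and 20.2% at 48 h. From 24 to 48 h 1 was called higher, that of CCL2, against 1.17% of all, and 1 lower, the brighter of CXCL8, against 1.46%, while unadjusted p was under 0.05 for 8 of the 12, against 16.1% of all. The arrays of the times did not overlap for 4 probe sets higher at 24 h than at 0 h, CXCL1 being the added one, against 13.8% of all, and for 3 lower, against 14.5%. They did not overlap at 48 h over 0 h for 5 higher, against 12.1% of all, and for 0 lower, against 13.4%. From 24 to 48 h they did not overlap for 4 higher, against 9.22% of all, and for 3 lower, against 10.2%. Without the truncated 24 h array the calls numbered 3 at 24 h, all of them the rises, 3 at 48 h over 0 h, and 1 from 24 to 48 h, the fall of CXCL8 (−1.20, limma adjusted p = 0.012).

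**Figure D4:**
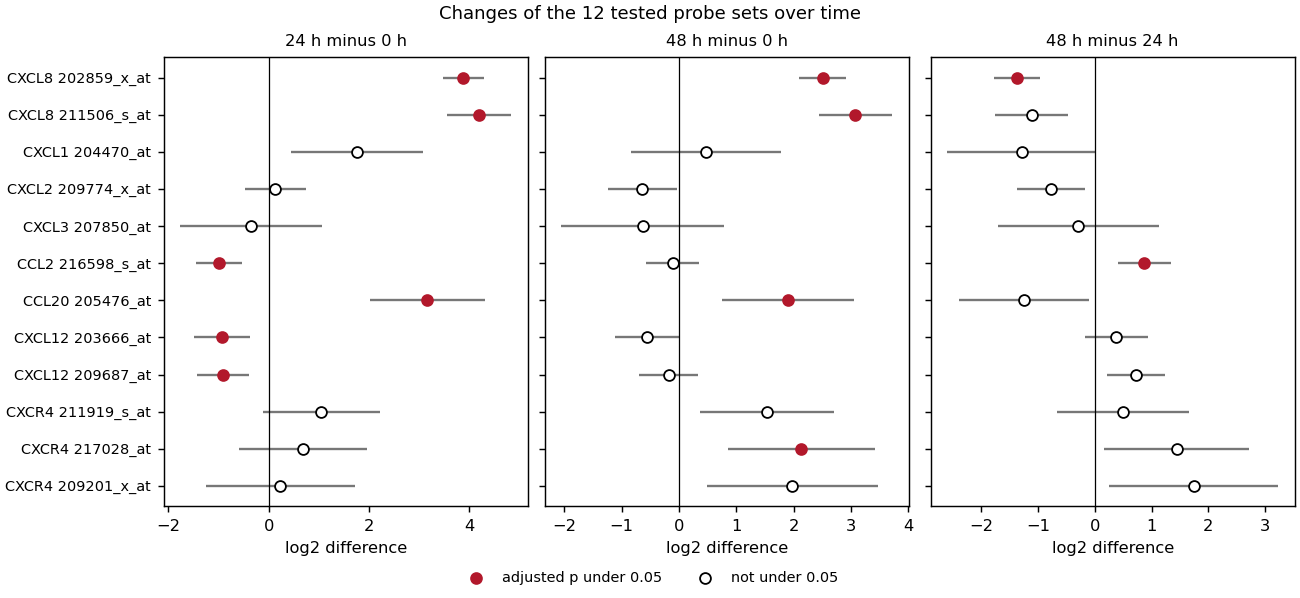
Change over time (log2 difference) of the 12 probe sets tested, as limma estimates with 95% confidence intervals from all 9 arrays. Filled points passed the adjusted threshold of 0.05 and open points did not: 6 pass at 24 h over 0 h, 4 at 48 h over 0 h and 2 at 48 h over 24 h.

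Whether the change from 0 h differed between series was tested in a second limma fit, which treats both later hours as readings of a single effect and has 2 residual degrees of freedom. None of the 12 probe sets was called in any of the 3 comparisons. Over all 26480 probe sets limma called 0 for full-length against untreated, 2 for truncated against untreated (0.00755%, both lower) and 0 for full-length against truncated. Unadjusted p was under 0.05 for 5, 4 and 1 of the 12, and for 1059, 1727 and 1525 of all.

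CXCL2, on the probe set 209774_x_at that may cross-bind, had the smallest p of the 12 in both comparisons with untreated cells. Its change was lower than in untreated cells by a log2 difference of −1.54 in full-length cells (95% interval −2.36 to −0.73, limma adjusted p = 0.84) and of −1.96 in truncated cells (−2.78 to −1.15, limma adjusted p = 0.13). CCL2 differed by −0.48 (−1.28 to 0.32, limma adjusted p = 1) in full-length and −1.23 (−2.03 to −0.43, limma adjusted p = 0.42) in truncated cells. CXCL12 on 203666_at differed by −1.05 (−1.995 to −0.10, limma adjusted p = 1) in full-length and −1.55 (−2.49 to −0.60, limma adjusted p = 0.37) in truncated cells. These comparisons share the untreated arrays, and the higher 0 h arrays of the construct series enter each of them.

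CXCR4 gave opposite signs by probe set in full-length against untreated cells, −3.19 (−5.23 to −1.16) on 211919_s_at and 3.22 (0.86 to 5.58) on 217028_at, both with a limma adjusted p of 1. In each of them 1 of the 0 h arrays was at the floor, the untreated one on 211919_s_at and the full-length one on 217028_at. CXCL8 on 202859_x_at differed by −0.86 (−1.51 to −0.21, limma adjusted p = 1) in full-length against untreated cells and by −1.18 (−1.82 to −0.53, limma adjusted p = 0.47) in full-length against truncated cells, while 211506_s_at gave 0.19 (−1.22 to 1.60) and 0.35 (−1.06 to 1.76). A p that missed the threshold leaves room for differences within these intervals.

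**Figure D5:**
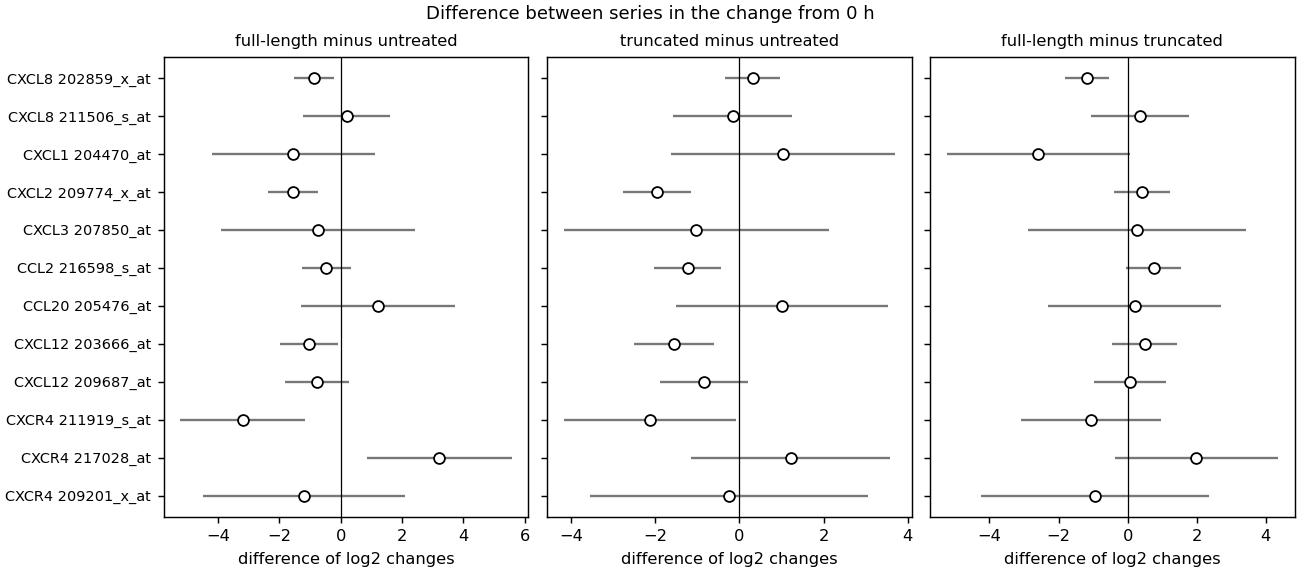
Difference between series in the change from 0 h (difference of log2 changes) for the 12 probe sets tested, as limma estimates with 95% confidence intervals from all 9 arrays. All points are open, since none passed the adjusted threshold of 0.05, and CXCR4 lies at −3.19 and 3.22 on 2 of its probe sets in full-length minus untreated.

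Within a series, where 1 array stands against 1 and there is no replicate check, the 12 probe sets were counted at 2-fold. At 24 h over 0 h, 4 were higher and 2 lower in the full-length series, against 10.8% and 11.7% of all. In the truncated series 4 were higher and 3 lower, against 16.9% and 12.8%, and in the untreated series 7 were higher and 1 lower, against 10.3% and 11.3%. The 7 in untreated cells were both of CXCL8, those of CXCL1, CXCL2 and CCL20, and 2 of CXCR4. By 48 h, 5 were higher than at 0 h and 1 was lower in the full-length series, against 9.65% and 11.3%. In the truncated series 7 were higher and 3 lower, against 10.7% and 10.4%, and in the untreated series 4 were higher and 0 lower, against 8.75% and 11.7%. Between series at 24 h, 1 was at least 2-fold higher and 4 were lower in full-length than in untreated cells, against 8.63% and 8.07% of all. In truncated against untreated cells 0 were higher and 4 lower, against 12.2% and 8.49%. CXCL2, CXCL3 and CCL20 were among the 4 lower in both, with CCL20 at 76.6 and 93.9 in full-length and truncated cells, against 203.7 in untreated cells. CCL20 was already at least 2-fold lower in both at 0 h, at 8.15 and 9.43 against 26.3, as was CXCL3 in truncated cells. The fitted difference from untreated cells in the change of CCL20 from 0 h was 1.21 (95% interval −1.3 to 3.72) in full-length cells. It was 1.01 (−1.50 to 3.52) in truncated cells, and neither passed the test.

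Other genes of the chemokine system were mostly too dim to test. Of 11 other CXC ligands 3 passed the filter, of 20 other CC, CX3C and XC ligands 8 did, and of 20 other chemokine receptors 4 did. None of these 15 was called by limma at 24 h or at 48 h over 0 h, where 7.57% and 4.03% of the brightest probe sets of 13799 genes were called higher and 7.62% and 3.44% lower. Their unadjusted p was under 0.05 for 0 of the 15 at 24 h and for 1 at 48 h. Among those below the filter were receptors of the ligands described here: CXCR1 at 1.81 to 39.5, CXCR2 at 1.20 to 27.7, CCR2 at 1.60 to 29.8 and CCR6 at 2.0 to 28.4. ACKR3, the other CXCL12 receptor, was also below it, at 2.14 to 48.8. CXCL10, an interferon-induced ligand, had an estimate of 1.13 ± 0.82 (SE; limma adjusted p = 0.42) at 24 h.

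Of 17 genes of the CXCL12 and CXCR4 axis with a probe set, 16 were tested and 1 was called higher, and none lower, at 24 h and again at 48 h over 0 h. That is near the shares of all genes, 7.57% higher and 7.62% lower at 24 h and 4.03% and 3.44% at 48 h. The median change of the 16 at 24 h was −0.22, against −0.03 over all genes. The called one was ITCH, a ubiquitin ligase that sends CXCR4 to degradation, read by a probe set that may cross-bind. ITCH had signals of 263, 429 and 403 at 0, 24 and 48 h in RE-EX1 cells, 252, 466 and 432 in HZ4 cells and 270.5, 450 and 437 in untreated cells. All its later arrays were above its 0 h arrays, and ITCH rose by 0.78 ± 0.17 (SE; limma adjusted p = 0.0053) at 24 h and by 0.70 ± 0.17 (adjusted p = 0.021) at 48 h. MIF, a further ligand of CXCR4, had an estimate of −0.37 ± 0.16 (SE; limma adjusted p = 0.14) at 24 h.

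NF-kB subunits and feedback genes had their calls at 24 h. This list, like those of the cytokine and AU-rich genes below, was chosen with earlier results of these data known. The shares of all genes beside them are thus descriptions. Of 16 tested, 6 rose and 0 fell at 24 h over 0 h, against 7.57% and 7.62% of genes, with a median change of 0.56, and limma called 0 in either direction at 48 h, where 3 had an unadjusted p under 0.05. TNFAIP3, a ubiquitin-editing enzyme that limits NF-kB signalling, had signals of 275, 676 and 226 at 0, 24 and 48 h in RE-EX1 cells, 311, 616 and 196 in HZ4 cells and 176, 695 and 206 in untreated cells. It peaked at 24 h in all 3 series, with a log2 change of 1.42 ± 0.21 (SE; limma adjusted p = 0.00017). The others were the subunits REL (0.83), RELA (0.84) and RELB (0.98), the inhibitor NFKBIE (1.31) and the adaptor TRAF1 (1.92), while NFKB1 (0.02, limma adjusted p = 0.97) and the inhibitor NFKBIA (−0.24, limma adjusted p = 0.40) did not pass. From 24 to 48 h REL, RELB and TNFAIP3 fell, against 1.65% of genes. Without the truncated 24 h array 3 of the 16 were called higher at 24 h: TNFAIP3, RELA and NFKBIE were kept, and REL (limma adjusted p = 0.11), RELB (0.062) and TRAF1 (0.11) were lost, as was the later fall of RELB (limma adjusted p = 0.078).

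Among 13 tested cytokine and inflammatory genes 4 rose and 2 fell at 24 h over 0 h, against 7.57% and 7.62% of genes. IL11 and LIF, cytokines of the IL6 family, rose by 2.50 ± 0.19 (SE; limma adjusted p = 1.1e-07) and 2.16 ± 0.23 (limma adjusted p = 5.8e-06), IL6 itself by 1.54 ± 0.38 (limma adjusted p = 0.010), and PTGS2, the inducible prostaglandin synthase, by 0.85 ± 0.21 (limma adjusted p = 0.012). VCAM1, an adhesion molecule also driven by NF-kB, fell by 1.94 ± 0.19 on the log2 scale (SE; limma adjusted p = 3.3e-06), and IL1R1, an IL1 receptor, by 1.09 ± 0.22 (limma adjusted p = 0.0024). VCAM1 read 780, 174 and 288 at 0, 24 and 48 h in RE-EX1 cells, 648, 151 and 293 in HZ4 cells and 529, 182 and 299 in untreated cells, with no overlap between the times. IL11, PTGS2 and VCAM1 were also called at 48 h over 0 h, in the same directions, which is 2 higher and 1 lower, against 4.03% and 3.44% of genes. Without the truncated 24 h array the 24 h call of PTGS2 was lost (0.83, limma adjusted p = 0.056) and the other 5 were kept.

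Of 10 tested factors of AU-rich mRNA decay and stability, 3 rose and 0 fell at 24 h over 0 h, against 7.57% and 7.62% of genes, and limma called 0 at 48 h, against 4.03% and 3.44%, where 2 had an unadjusted p under 0.05. The 3 were ZFP36, which promotes decay of cytokine mRNAs, and its relatives ZFP36L1 and ZFP36L2. ZFP36 read 107, 480 and 200.2 at 0, 24 and 48 h in RE-EX1 cells, 175, 565 and 207 in HZ4 cells and 125, 436 and 186 in untreated cells. All its 24 h arrays were above the rest, with a log2 change of 1.88 ± 0.21 (SE; limma adjusted p = 9.6e-06).

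The genes most like CXCL8 over the 9 arrays, by Pearson correlation of log2 signal with 202859_x_at among 9004 genes, were STC1 (0.981), a secreted glycoprotein hormone, TSC22D1 (0.976), SNRNP48 (0.976), a subunit of the minor spliceosome, TGIF1 (0.975), a repressor in TGF-beta signalling, and ODC1 (0.973), an enzyme of polyamine synthesis. The nearest to CXCR4 on 211919_s_at were SYT12 (0.941), GGTLC1 (0.926), LOC646214 (0.925), MEF2D (0.925) and ARHGEF4 (0.925), where 1 low array, untreated at 0 h, carries much of the spread. Both are descriptions over 9 arrays that share the time course.

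The cell line was set against marker genes. All 11 mesenchymal neuroblastoma markers passed the filter, with VIM at 9354 to 14400, as did 9 of 11 sympathoadrenal ones with a probe set, GATA3 among them, while DBH and TH did not. Of 9 blood and immune markers 3 passed, PTPRC, ITGAM and HBB, the last on a probe set that may cross-bind. CD14, CSF1R, LYZ, TYROBP, CD3E and MS4A1 did not pass. The summed signal of the 9 was 176.7 to 205.4 at 0 h, 185.9 to 323.1 at 24 h and 277 to 336.1 at 48 h. PTPRC alone read 134.6, 175.4 and 173.5 at 48 h in RE-EX1, HZ4 and untreated cells, against 57.8, 74.6 and 106.9 at 0 h, and rose by 1.05 (limma adjusted p = 0.042), while ITGAM (0.54, limma adjusted p = 0.76) and HBB (0.14, limma adjusted p = 0.93) did not pass. At 24 h PTPRC read 75.1, 163.8 and 127.4 in RE-EX1, HZ4 and untreated cells (0.59, limma adjusted p = 0.22). From 24 to 48 h its estimate was 0.46, against −1.37 and −1.12 for CXCL8, −1.26 for CCL20 and 0.49 to 1.74 for CXCR4. Blood cells also express CXCL8, CCL20 and CXCR4, and the part of PTPRC-expressing cells in their 48 h values was not tested. Of 7 endothelial markers 1 passed, PECAM1, and of 7 epithelial markers 3 did. The summed signal of these 7 epithelial markers was 2604 to 3961 at 0 h, 3619 to 4534 at 24 h and 5755 to 6406 at 48 h, most of it KRT18, at 2382 to 6076. KRT18 rose by 0.90 at 48 h (limma adjusted p = 0.0018), while KRT8 (0.059, limma adjusted p = 0.94) and CLDN4 (−0.024, limma adjusted p = 0.98) did not pass. KRT18 and KRT8 were each read by a probe set that may cross-bind. EPCAM, CDH1, KRT5 and KRT19 were below the filter.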

How the data were processed

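The authors deposited an intensity on a linear scale for each probe set of each array. GCOS is the tool that the submitters' processing notes name, without a version. After trimming 2% at each end, the mean intensity was 150.02 on every array, so the scaling was kept. Of 54675 probe sets, 62 are controls, and 41091 name 1 gene in GEO's platform annotation, with symbols updated by Entrez ID for 41037. Values below the 25th percentile of all values (8.27) were raised to it, log2 was taken, and the 26480 probe sets with a mean above 4.20 (the 40th percentile) were tested. limma 3.58.1 in R 4.3.3 was used (lmFit, then eBayes with trend), with two-sided tests and Benjamini-Hochberg adjustment over all 26480. The time model held series and time (4 residual degrees of freedom). The exposure model also held 1 term per construct after 0 h (2 residual degrees of freedom). The eBayes step draws the variance of each probe set toward a trend over all probe sets. Total degrees of freedom were thereby 18.31 in the time model and 17.4 in the exposure model. The SE, p-values and intervals are therefore not the spread of a single probe set between series. Each group has 1 array, so p-values reflect the spread among these arrays alone, and their number limits the precision. The fits were tested on simulated data. The named genes are all probe sets of the 8 genes, the called or defining members of each list, and the 5 genes most like CXCL8 and CXCR4. Lists gave the brightest probe set of each gene. The members and lists were chosen with earlier results of these data known. Promoter windows and gene positions are from RefSeq (GRCh38.p14). Alternatives varied the floor, filter, normalization, probe set choice, variance trend, series term and the series or array left out.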

Additional observations from a re-analysis of the deposited data

Results flagged for a closer look

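CXCL2 on 209774_x_at was lower at both later times than at 0 h in both construct series and higher at both in untreated cells. Its log2 changes were −0.32 at 24 h and −0.93 at 48 h with RE-EX1, −0.76 and −1.32 with HZ4, and 1.498 and 0.34 without a construct. The fitted difference was −1.54 for full-length against untreated (limma adjusted p = 0.84) and −1.96 for truncated against untreated (limma adjusted p = 0.13), so the test of the difference did not pass. CXCL3 was also lower at both later times in both construct series, with changes of −0.67 at 24 h and −0.62 at 48 h with RE-EX1 and −0.41 and −1.43 with HZ4. Without a construct it hardly moved, with changes of 0.05 and 0.15. CXCL3 was dim, and its truncated 48 h array, at 6.07, was below the floor. Its fitted difference was −0.74 for full-length (limma adjusted p = 1) and −1.02 for truncated against untreated cells (limma adjusted p = 0.96). Both comparisons of a gene share the untreated arrays, and each group is 1 array.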

How the results depend on the processing

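The counts below are of probe sets or genes called by limma unless stated. At 24 h over 0 h, 3466 probe sets were called, against 1462 with no filter on dim probe sets, 2242 with the brightest probe set per gene, 1213 with the mean of all probe sets per gene, 446 without the variance trend, 1682 without the full-length series, 1831 without the truncated series, 2263 without the untreated series and 2078 without the truncated 24 h array. Of the chemokine and CXCR4 probe sets 6 were called, against 3 in each of these: no filter, no trend, without the full-length series, without the truncated series and without the truncated 24 h array. At 48 h over 0 h, 1647 were called, against 238 with no filter, 477 with the mean per gene, 2 without the trend, 509 without the full-length, 778 without the truncated and 717 without the untreated series. Of the chemokine and CXCR4 probe sets 4 were called, against 2 with no filter, with a filter at the 60th percentile, with the brightest per gene, and without the full-length or the truncated series, and 0 without the trend. At 48 h over 24 h, 697 were called, against 0 with no filter, 175 with the mean per gene, 0 without the trend, 261 without the full-length, 198 without the truncated and 277 without the untreated series, and 238 without the truncated 24 h array. Of the chemokine and CXCR4 probe sets 2 were called, against 0 with no filter or no trend and 1 with quantile normalization, with the mean per gene, without probe sets ending in _x_at, without the truncated series or without the truncated 24 h array. CXCL8 at 24 h over 0 h stayed called in every alternative run, 13 on 202859_x_at (3.60 to 4.21) and 12 on 211506_s_at (3.71 to 4.43), as did CCL20 in 13 (2.14 to 3.26). The alternatives without a filter test more probe sets and those per gene fewer. The filter at the 60th percentile left 7 chemokine and CXCR4 probe sets to test, without the called ones of CCL20 and CXCR4. The brightest per gene left 8, without 211506_s_at of CXCL8 and 217028_at of CXCR4. Leaving out probe sets ending in _x_at left 9, without the called 202859_x_at of CXCL8. For the rest the cause was not tested.

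Differences between series were called for 0 chemokine or CXCR4 probe sets in each alternative run. Over all probe sets, full-length against untreated gave 1 with the brightest per gene and 1 without probe sets ending in _x_at, against 0. Truncated against untreated gave 7 with log2(signal + 16), 5 with the brightest per gene, 1 without probe sets ending in _x_at, and 0 with the floor at the 40th percentile, no filter, a filter at the 60th percentile, quantile normalization, the mean per gene or no trend, against 2. Full-length against truncated gave 5 with log2(signal + 16) and 2 with the brightest per gene, against 0.

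Signs that turned belong to estimates that did not pass the test. At 24 h over 0 h these were CXCR4 on 217028_at without the full-length series (−0.29), and CXCL2 (−0.54) and CXCR4 on 209201_x_at (−0.31) without the untreated series. At 48 h over 0 h they were CXCL12 on 209687_at without the full-length series (0.075), and CXCL1 (−0.22) and CCL2 (0.19) without the truncated series. At 48 h over 24 h CXCL3 turned with the floor at the 40th percentile (0.036) and without the truncated series (0.077). For full-length against untreated CCL20 turned with that floor (−0.24) and CXCL8 on 211506_s_at with log2(signal + 16) (−0.26). For truncated against untreated CXCL1 (−0.41) and CCL20 (−0.25) turned with that floor. For full-length against truncated CXCL3 turned with that floor (−0.49), CXCL8 on 211506_s_at with log2(signal + 16) (−0.065), and CXCL2 with the mean per gene (−0.16).

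Counts of probe sets at least 2-fold apart between 2 arrays fell with log2(signal + 16), by construction for dim values. For 24 h over 0 h they were 3838 against 5953 in RE-EX1 cells and 3481 against 5714 in untreated cells. For 48 h over 0 h they were 3481 against 5557 in RE-EX1, 3468 against 5603 in HZ4 and 3321 against 5429 in untreated cells. For full-length against untreated at 0, 24 and 48 h they were 2640, 2543 and 2884, for truncated against untreated 2089, 3444 and 2551, and for full-length against truncated 2710, 3317 and 2434. With the floor at the 40th percentile they were 3731 in untreated cells for 24 h over 0 h, and 3639 in HZ4 and 3388 in untreated cells for 48 h over 0 h. With that floor they were 2724, 2440 and 2793 for full-length against untreated at 0, 24 and 48 h, 1969 and 2469 for truncated against untreated at 0 and 48 h, and 2734 and 2371 for full-length against truncated at 0 and 48 h. The time fit holds the series as a term, so the arrays of a series are already matched over time. Without that term 6, 3 and 2 chemokine and CXCR4 probe sets were called at 24 h over 0 h, 48 h over 0 h and 48 h over 24 h, against 6, 4 and 2 with it. No further paired analysis was possible because each group holds 1 array and the labels give no replicate numbers. The dim probe sets of CXCL1, CXCL3, CCL20 and CXCR4 lie near the floor on some arrays, which limits what their folds can show.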
